A study of Homo sapiens with 8 samples.

Results

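Oncofetal genes are genes of the fetal liver that fall silent or low after birth and that liver tumors use again. The set described here holds 10 of them, AFP, GPC3, IGF2, H19, IGF2BP1, IGF2BP3, LIN28B, DLK1, PEG10 and HMGA2, given as gene symbols and found by symbol in a read count table of 31710 genes. All 10 had a row, all 10 passed the filter on low counts that left 16972 genes for testing, and the member with the fewest reads in any library was H19, with 35. RNA came from Huh7 and Hep3B, established human liver cancer cell lines, each given 4 treatments with 1 library per line and treatment, 8 libraries in all. The treatments were XL413 for 10 days and then sertraline for 24 hours (both drugs), XL413 for 10 days, sertraline, and no drug (control). XL413 inhibits CDC7, a kinase needed to start DNA replication, and the labels say it was used to make the cells senescent, a state of lasting arrest. Sertraline, a drug against depression, inhibits reuptake of serotonin. The labels used here give no dose, and they give no duration of sertraline for cells without XL413. No treatment was repeated inside a line and nothing says whether libraries came from separate cultures, so p-values measure the spread among these libraries. Each line was started from 1 tumor.

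In fetal liver, AFP is the main serum protein and is replaced by albumin after birth. IGF2 is a growth factor that signals through the receptor IGF1R and is cleared by IGF2R. IGF2 and its neighbour H19, a long noncoding RNA, are imprinted: in most fetal tissues the copy from the father makes IGF2 and the copy from the mother makes H19, under a shared control region whose methylation differs between the copies. LIN28B binds precursors of the let-7 microRNAs and blocks their maturation, and let-7 in turn represses LIN28B, HMGA2, IGF2BP1 and IGF2BP3, so the 4 genes are textbook parts of 1 circuit that is active in fetal cells. Neither DNA methylation nor microRNAs were measured in these libraries.

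The let-7 family is shown first because its seed ties together 4 of the members, LIN28B, HMGA2, IGF2BP1 and IGF2BP3. In RefSeq (GRCh38.p14), 9 mature let-7 family names from 12 genes shared 1 seed, bases 2 to 8, given in capitals in these 3 of them:
let-7a-5p: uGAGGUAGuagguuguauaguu
let-7i-5p: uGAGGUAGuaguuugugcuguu
miR-98-5p: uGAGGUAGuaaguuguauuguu
A target site carries the reverse complement of the seed, CTACCTC, searched here on the transcript strand in the 3′ UTR of 1 transcript per gene (GENCODE, GRCh38). Of the 9 members with a 3′ UTR, LIN28B, IGF2BP1 and HMGA2 had 4 matches each, IGF2BP3 had 1, and AFP, GPC3, IGF2, DLK1 and PEG10 had 0. Among 1227 genes with a 3′ UTR within 20% of the length of that of LIN28B, 23.1% had at least 1 match and 0.163% had 4 or more. The corresponding shares with as many matches were 0.439% for IGF2BP1, 0.053% for HMGA2 and 11.9% for IGF2BP3, and 8.57% of all 19128 genes with a 3′ UTR had a match. The sites of LIN28B and IGF2BP3, with the match in capitals, were these:
LIN28B at chr6:105078815-105078844, plus strand: cggttgcaaagtCTACCTCatgcaagtata
LIN28B at chr6:105081242-105081271, plus strand: tgatgatagtaaCTACCTCtgagtttgaca
LIN28B at chr6:105081424-105081453, plus strand: tacagcaaaaggCTACCTCatagttgatac
LIN28B at chr6:105082863-105082892, plus strand: tgatggtgttgaCTACCTCttgaatcacat
IGF2BP3 at chr7:23311785-23311814, minus strand: atttttactcaaCTACCTCaggtattcagt
A match is a run of letters and does not show that the site was used in these cells.

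Promoters are shown for the members that differed most between the lines. RefSeq (GRCh38.p14) gave a promoter for 4 of the 10 members. The RefSeq starts of H19 and AFP lie inside the wider gene intervals of the count table, which are given with the values, so these windows overlap the intervals. The 250 bases before the RefSeq start of H19 lie at chr11:2001267-2001516 on the minus strand, with each CpG in capitals:
H19: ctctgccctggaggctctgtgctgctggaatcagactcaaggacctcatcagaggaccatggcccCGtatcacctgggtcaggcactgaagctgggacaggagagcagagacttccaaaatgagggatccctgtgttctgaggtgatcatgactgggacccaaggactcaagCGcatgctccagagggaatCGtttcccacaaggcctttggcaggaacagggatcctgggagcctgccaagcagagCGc
H19 had 4 CpGs in this window, against a median of 11 over 35116 promoters, of which 29.3% had fewer. The 250 bases before the RefSeq start of AFP lie at chr4:73435971-73436220 on the plus strand. They held 1 CpG, in capitals, and 6.06% of promoters had fewer:
AFP: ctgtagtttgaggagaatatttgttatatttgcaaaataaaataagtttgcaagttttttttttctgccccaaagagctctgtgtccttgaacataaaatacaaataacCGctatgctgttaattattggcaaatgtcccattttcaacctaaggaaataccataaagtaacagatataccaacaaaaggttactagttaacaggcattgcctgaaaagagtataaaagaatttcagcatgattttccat

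**Figure D1:**
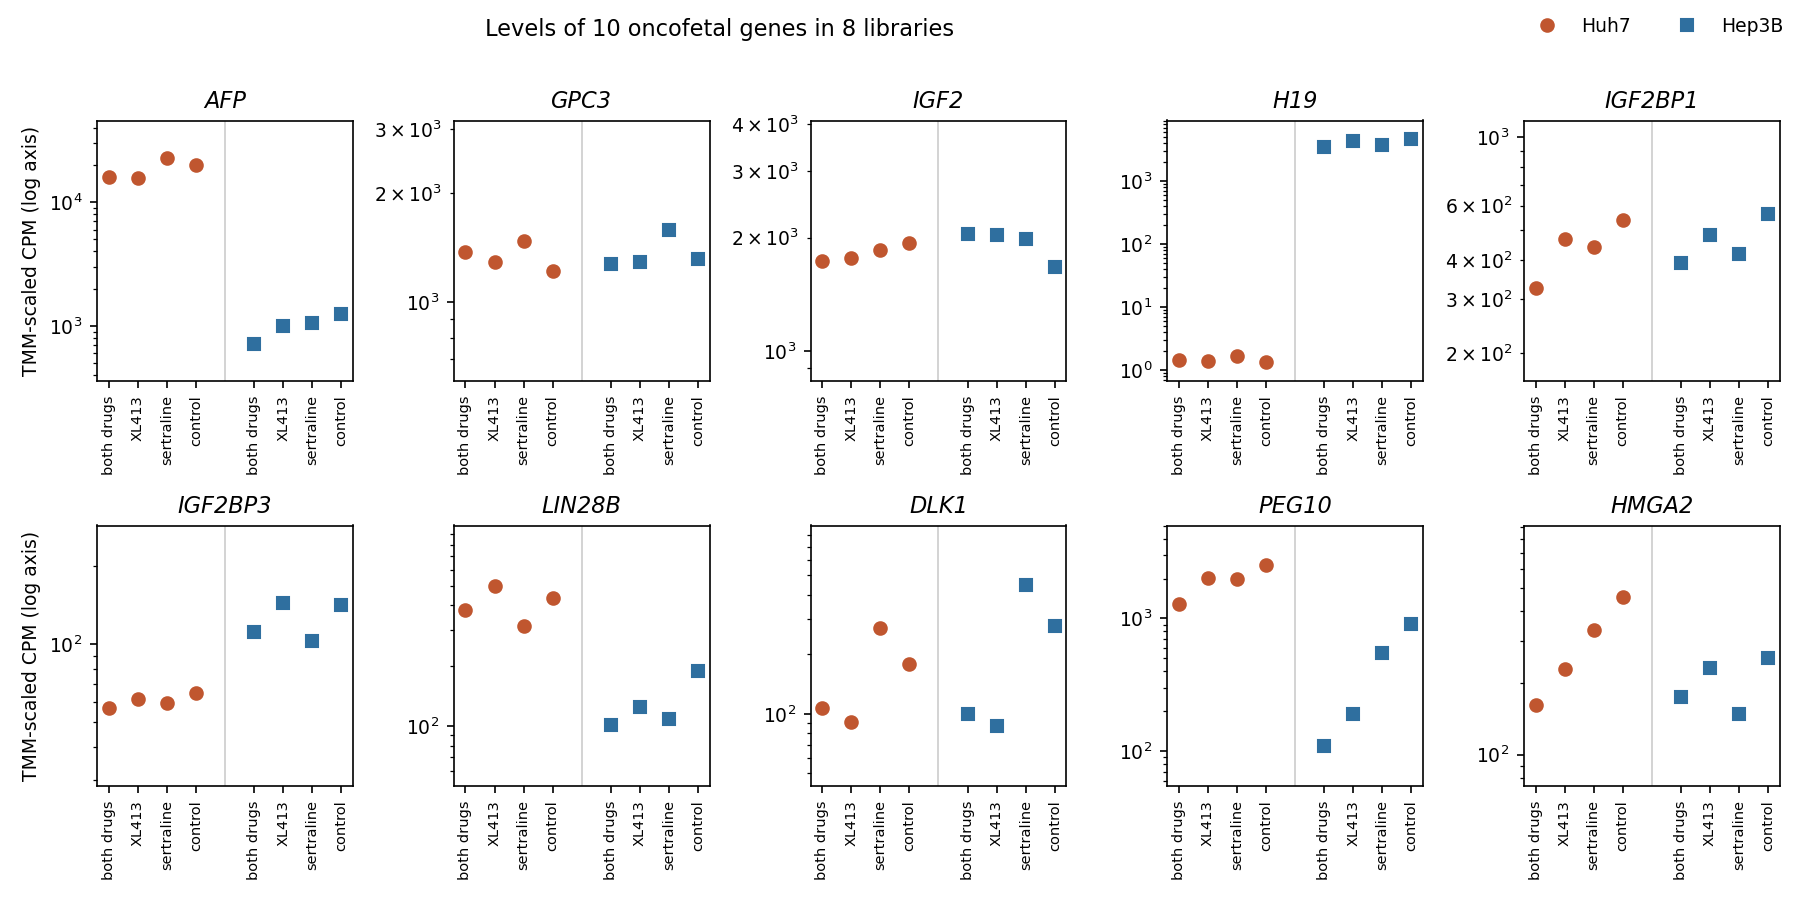
CPM (read counts scaled to library size with TMM; log axis with its own range in each panel) of the 10 oncofetal genes in the 8 libraries, with Huh7 libraries as circles and Hep3B libraries as squares. AFP, PEG10 and LIN28B sat higher in all 4 Huh7 libraries, H19 and IGF2BP3 sat lower in them, and the ranges of the other 5 members overlapped between the lines.

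Depth ran from 20275392 reads (Hep3B, XL413) to 30842770 reads (Hep3B, both drugs), so counting error is small for every member except H19 in Huh7. ALB, serum albumin, had 5735 to 8219 CPM in Huh7 and 15463 to 21887 CPM in Hep3B. Of the markers of other cell types fixed for the check, LYZ had 297 to 481 CPM in Huh7 and 41.1 to 132 CPM in Hep3B, while the other immune and blood markers summed to at most 0.363 CPM in Huh7 and 0.188 CPM in Hep3B. Endothelial markers summed to 3.76 to 6.62 CPM in Huh7 and 0.666 to 1.31 CPM in Hep3B. Fibroblast and stellate markers summed to 25.7 to 65.9 CPM in Huh7 and 22.1 to 44.1 CPM in Hep3B.

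To compare levels between genes, CPM was divided by the exon length of each gene in kilobases. In Huh7, AFP stood first with a mean of 5709 CPM per kilobase, and its range over the 4 libraries did not touch that of GPC3, next with 494. PEG10 (291) and IGF2 (261) followed and overlapped each other. LIN28B (67.7), IGF2BP1 (48.7), DLK1 (30.4) and HMGA2 (19.1) formed a chain in which each overlapped the next. IGF2BP3 (7.12) and H19 (0.505) came last, each apart from the one above. In Hep3B the order began with H19, at 1378 CPM per kilobase, which was last in Huh7. GPC3 (503) came next, then AFP (310) and IGF2 (277), which overlapped. PEG10 (65.5), IGF2BP1 (51.0), DLK1 (42.8), LIN28B (21.7), IGF2BP3 (14.7) and HMGA2 (13.1) each overlapped the next in that order. These are levels and not tests.

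The first comparison asks how the lines differ in these genes, over 4 libraries of each line and with treatment in the model. Of the 10 members, 3 were higher in Huh7 and 2 were lower. Among all genes tested 62.7% differed between the lines, 31.4% higher in Huh7 and 31.4% lower, so the share of members called was near that of other genes. The median log2 change was -0.05 over the members and 0.00 over all genes (Huh7 over Hep3B). What set the members apart from one another was the size of the difference, which ran from 2703-fold for H19 to a log2 change of -0.02 for GPC3. In bulk RNA, a smaller number of expressing cells and less RNA per cell cannot be told apart.

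AFP (chromosome 4, 73431138 to 73456174) had 15948, 15591, 22801 and 20076 CPM in the Huh7 libraries given both drugs, XL413, sertraline and no drug. In the Hep3B libraries in the same order it had 720, 1004, 1054 and 1256 CPM. The lowest Huh7 library was above every Hep3B library. AFP was 18.6-fold higher in Huh7 (log2 change 4.21 ± 0.15 SE, adjusted p = 2.50e-07, edgeR quasi-likelihood test with Benjamini-Hochberg adjustment). Its neighbours in the albumin gene cluster went the other way: ALB was lower in Huh7 by a log2 change of -1.46 ± 0.14 (adjusted p = 3.71e-05), and GC, the vitamin D binding protein, by -4.07 ± 0.16 (adjusted p = 4.43e-07). AFM, afamin, the remaining gene of the cluster, had a log2 change of -0.19 ± 0.22 (adjusted p = 0.478). ZHX2, a factor known in mouse to repress AFP and H19 after birth, was higher in Huh7 by 0.59 ± 0.15 (adjusted p = 0.00928), at 65.2 to 83.1 CPM in Huh7 and 42.5 to 56.9 CPM in Hep3B.

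GPC3 (chromosome X, 133535745 to 133985895), a heparan sulfate proteoglycan on the surface of liver tumor cells, had overlapping levels in the lines. It had 1374, 1293, 1479 and 1216 CPM in the Huh7 libraries given both drugs, XL413, sertraline and no drug, and 1273, 1287, 1581 and 1316 CPM in the Hep3B libraries in that order. The log2 change was -0.02 ± 0.09 (adjusted p = 0.833). Of 13 other glypicans and heparan sulfate enzymes tested, 3 were higher in Huh7 and 8 lower, with a median log2 change of -0.85. SULF2, an extracellular sulfatase that trims heparan sulfate, had 1526 to 1762 reads in the Huh7 libraries and 0 to 3 reads in the Hep3B libraries. GPC6 was lower in Huh7 by -1.05 ± 0.10 and FURIN, a protease that cleaves glypicans, was higher by 1.06 ± 0.10 (adjusted p = 3.37e-05 and 3.53e-05).

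IGF2 (chromosome 11, 2129112 to 2149603) and H19 (chromosome 11, 1995163 to 2001470) are neighbours, and the lines differed in H19 while a difference in IGF2 was not called. IGF2 had 1738, 1765, 1857 and 1930 CPM in the Huh7 libraries given both drugs, XL413, sertraline and no drug, and 2044, 2037, 1988 and 1668 CPM in the Hep3B libraries. The ranges overlapped, with a log2 change of -0.08 ± 0.11 (adjusted p = 0.522). H19 had 1.42, 1.40, 1.68 and 1.34 CPM in the Huh7 libraries in that order, and 3428, 4265, 3684 and 4592 CPM in the Hep3B libraries. H19 was 2703-fold lower in Huh7 (log2 change -11.40 ± 0.18, adjusted p = 1.18e-08). In Huh7 the 4 libraries held 164 H19 reads in all, against 437267 in Hep3B.

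Of the IGF axis outside the members, 18 of 20 genes were tested. The lines differed in 15 of them, 8 higher in Huh7 and 7 lower. IGF1R, the signalling receptor for IGF2, had 10.6 to 13.2 CPM in Huh7 and 61.0 to 68.9 CPM in Hep3B, a log2 change of -2.39 ± 0.09 (adjusted p = 3.56e-07). IGF2R, which removes IGF2, was lower in Huh7 by -0.57 ± 0.10 (adjusted p = 0.00158). IGFBP2, an IGF-binding protein, was higher in Huh7 by 6.64 ± 0.19 and IGFBP7 was lower by -6.91 ± 0.23 (adjusted p = 1.00e-07 and 1.81e-07). Both sizes rest on few reads in 1 line: IGFBP2 had 10 to 26 reads in the Hep3B libraries and IGFBP7 had 1 to 6 in the Huh7 libraries. IGF1 had 4 reads at most in any library.

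DLK1 (chromosome 14, 100725705 to 100738224) and PEG10 (chromosome 7, 94656325 to 94669695) are the other imprinted members, both active on the copy from the father. DLK1 encodes a transmembrane protein of hepatoblasts, and PEG10 is a gene of retrotransposon origin needed in placenta. DLK1 had 90.8 to 270 CPM across Huh7 libraries and 86.6 to 447 CPM across Hep3B libraries, with a log2 change of -0.30 ± 0.15 (adjusted p = 0.12). PEG10 had 1286, 2003, 1973 and 2514 CPM in the Huh7 libraries given both drugs, XL413, sertraline and no drug, and 109, 190, 548 and 906 CPM in the Hep3B libraries. No Hep3B library reached the lowest Huh7 library. PEG10 was 5.93-fold higher in Huh7 (log2 change 2.57 ± 0.36, adjusted p = 0.000342). SGCE, which shares a promoter region with PEG10 and is transcribed away from it, was higher in Huh7 by 0.47 ± 0.09 (adjusted p = 0.00196), at 46.0 to 62.7 CPM in Huh7 and 36.1 to 44.4 CPM in Hep3B. MEG3, the noncoding RNA made from the other copy of the DLK1 locus, had 0 or 1 read in the Huh7 libraries and 6 to 20 reads in the Hep3B libraries.

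Imprinted genes outside the members were read as a list of 28, of which 25 had a row and 21 were tested. Between the lines 7 were higher in Huh7 and 11 were lower, with a median log2 change of -0.65. SNRPN, a paternally expressed splicing gene, had 1 read over the 4 Huh7 libraries and 4606 over the 4 Hep3B libraries. PEG3, a paternally expressed zinc finger gene, had 2 reads in Huh7 and 7223 in Hep3B. NAP1L5 likewise had 2 reads in Huh7 and 522 in Hep3B, and was picked out after its values were seen. CDKN1C, a maternally expressed inhibitor of the cell cycle, was lower in Huh7 by -4.70 ± 0.21 (adjusted p = 7.38e-07).

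**Figure D2:**
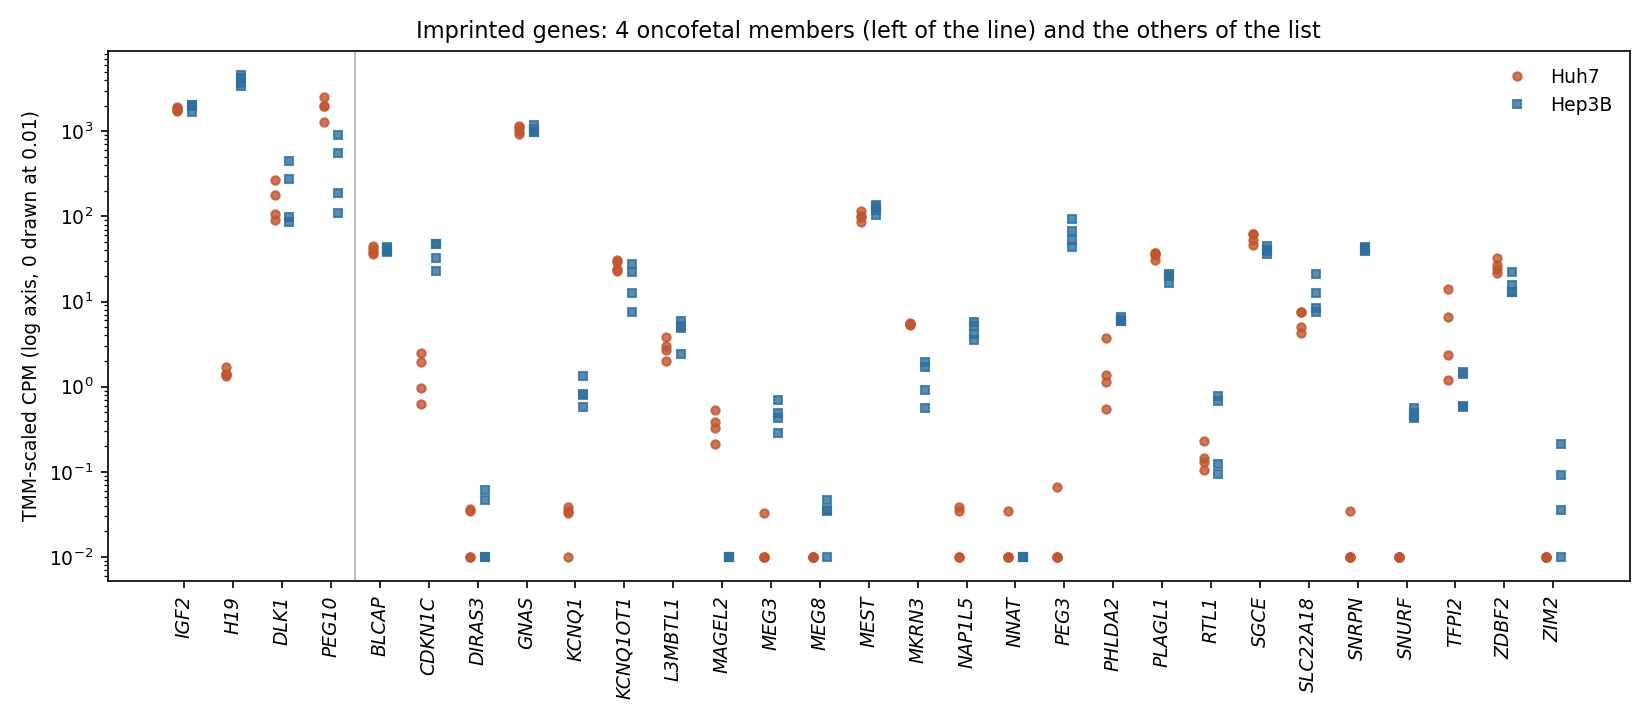
CPM (log axis) of imprinted genes in the 4 Huh7 libraries (circles) and the 4 Hep3B libraries (squares), with the 4 imprinted oncofetal members at the left and libraries without a read on the lowest line. The IGF2 ranges of the lines overlapped, whereas H19, SNRPN and PEG3 were at or below 1.68 CPM in every Huh7 library and at or above 39.5 CPM in every Hep3B library.

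The RNA-binding proteins and the chromatin protein of the let-7 circuit did not differ in one direction. IGF2BP1 (chromosome 17, 48997412 to 49055650) stabilizes and localizes messenger RNAs, IGF2 among them. It had 326 to 537 CPM in Huh7 and 393 to 564 CPM in Hep3B (log2 change -0.07 ± 0.09, adjusted p = 0.488). IGF2BP3 (chromosome 7, 23310209 to 23470467), a relative with the same kind of RNA-binding domains, had 56.8, 61.8, 59.2 and 64.6 CPM in the Huh7 libraries given both drugs, XL413, sertraline and no drug. It had 111, 144, 103 and 142 CPM in the Hep3B libraries. The ranges were apart, and IGF2BP3 was 2.04-fold lower in Huh7 (log2 change -1.03 ± 0.09, adjusted p = 3.01e-05). Its locus overlaps MALSU1, whose reads came to 39.1% of those of IGF2BP3, and it is not stated whether the counting used strand. IGF2BP2, the relative that adult tissues keep, was lower in Huh7 by -0.33 ± 0.08 (adjusted p = 0.0058).

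LIN28B (chromosome 6, 104957048 to 105083332) had 377, 498, 314 and 436 CPM in the Huh7 libraries given both drugs, XL413, sertraline and no drug, and 101, 124, 109 and 187 CPM in the Hep3B libraries. Every Huh7 library was above every Hep3B library, and LIN28B was 3.17-fold higher in Huh7 (log2 change 1.66 ± 0.14, adjusted p = 1.73e-05). LIN28A, its relative in stem cells, had at most 27 reads in any library. HMGA2 (chromosome 12, 65824131 to 65966295), a chromatin protein that bends DNA and is a classic let-7 target, had 161 to 455 CPM in Huh7 and 148 to 254 CPM in Hep3B. The ranges overlapped (log2 change 0.47 ± 0.21, adjusted p = 0.0756), and with DESeq2 HMGA2 was called higher in Huh7. HMGA1, its relative, was lower in Huh7 by -1.52 ± 0.09 (adjusted p = 3.24e-06). Of 19 other genes of the LIN28 and let-7 axis, 5 were higher in Huh7 and 7 lower. DICER1, which cuts microRNA precursors, was among the lower ones (-0.83 ± 0.09, adjusted p = 0.000104).

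**Figure D3:**
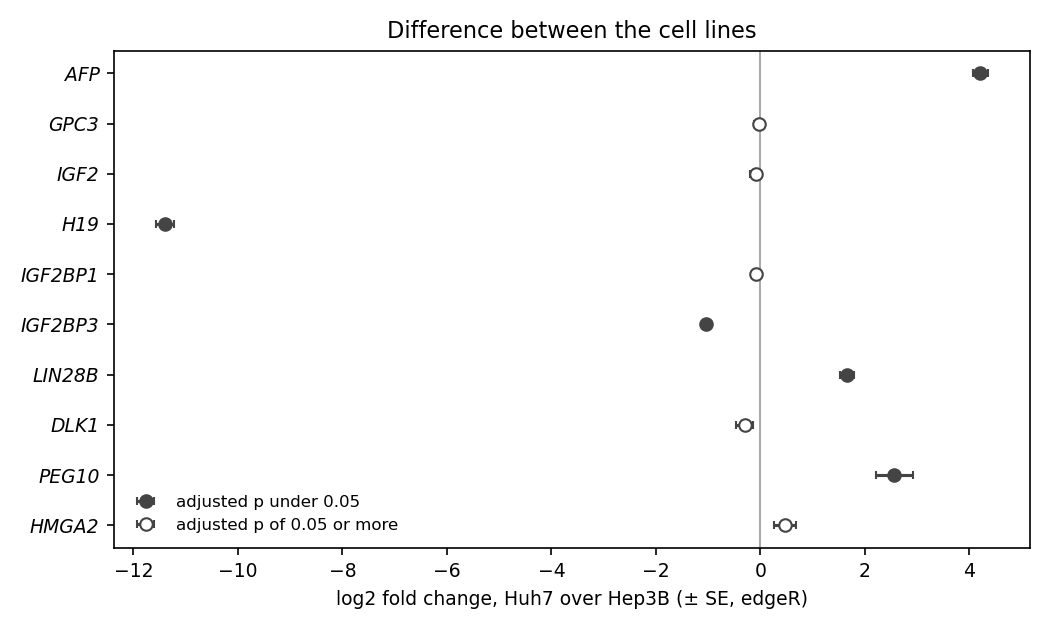
Log2 fold change of each member between the lines, Huh7 over Hep3B, with SE from edgeR over 4 libraries of each line; filled points passed an adjusted p of 0.05. AFP, PEG10 and LIN28B lay above 0 and H19 and IGF2BP3 below it, with H19 at -11.40.

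The drug comparisons over both lines take the lines as the replicates, so they ask which changes were alike in Huh7 and Hep3B. No member passed the test in any of the 5 comparisons with edgeR. For sertraline against control 4.9% of all genes were called and for both drugs against XL413 alone 0.937%. For XL413 against control, both drugs against sertraline alone and the interaction of the drugs the share of all genes called was 0%, with 1828, 2173 and 140 genes at an unadjusted p under 0.05. DESeq2 called 201, 334 and 0 genes in those 3 comparisons and limma voom called 0 in each.

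Some members came nearer to the threshold than others. At an unadjusted p under 0.05 there were 3 members for sertraline against control (IGF2BP1, LIN28B and DLK1), 1 for both drugs against XL413 alone (IGF2BP1), 2 for XL413 against control (DLK1 and PEG10), 3 for both drugs against sertraline alone (AFP, DLK1 and PEG10) and 0 for the interaction. Over all genes the shares at that level were 22.2%, 16%, 10.8%, 12.8% and 0.825% in the same order. Limma voom called 0 members in each. DESeq2 called LIN28B for sertraline against control, IGF2BP1 for both drugs against XL413 alone, DLK1 for each of the XL413 comparisons, and 0 members for the interaction. The log2 change of DLK1 was -1.32 ± 0.22 for XL413 against control (adjusted p = 0.133) and -1.75 ± 0.22 for both drugs against sertraline alone (adjusted p = 0.0682). For PEG10 the corresponding values were -1.33 ± 0.48 (adjusted p = 0.399) and -1.43 ± 0.48 (adjusted p = 0.278). Both comparisons of a drug are given side by side and share no library.

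Changes inside each line, and their difference between lines, were tested in a model in which each drug has its own effect in each line. There a drug is compared over the 2 libraries with it and the 2 without it, and the spread comes from departures from additivity of the drugs within a line, not from repeated cultures. Inside the lines more genes passed than in the drug comparisons over both lines, and the reason was not tested. XL413 changed 20.5% of all genes in Huh7 (11.6% higher, 8.99% lower) and 17.1% in Hep3B (8.84% higher, 8.21% lower).

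DLK1 and PEG10 fell after XL413 in both lines, and more in Hep3B. With XL413, 5 members were lower and 0 higher in Huh7, and 4 were lower and 0 higher in Hep3B. AFP fell by a like amount in both lines, HMGA2 fell in Huh7, and LIN28B fell in Hep3B. GPC3, IGF2, H19 and IGF2BP3 were not called in either line.

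DLK1 had 107 and 90.8 CPM in the Huh7 libraries given both drugs and XL413, against 270 and 178 CPM in those given sertraline and no drug. In Hep3B it had 99.7 and 86.6 CPM with both drugs and XL413, against 447 and 277 CPM with sertraline and no drug. In each line both libraries with XL413 lay below both without it. DLK1 fell by 1.16 on the log2 scale in Huh7 (SE 0.12, adjusted p = 1.01e-06) and by 1.93 in Hep3B (SE 0.12, adjusted p = 2.54e-09). The fall was larger in Hep3B: the difference, Huh7 minus Hep3B, was 0.77 ± 0.17 (adjusted p = 0.00513), in a comparison in which 8.9% of all genes differed. That difference was no longer called without the Huh7 control library or without the Huh7 XL413 library, with an adjusted p of up to 0.107.

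PEG10 in Huh7 had 1286 and 2003 CPM with both drugs and XL413, against 1973 and 2514 CPM with sertraline and no drug, and these pairs overlapped. In Hep3B it had 109 and 190 CPM with both drugs and XL413, against 548 and 906 CPM with sertraline and no drug, and these were apart. PEG10 fell by 0.47 on the log2 scale in Huh7 (SE 0.12, adjusted p = 0.00628) and by 2.29 in Hep3B (SE 0.12, adjusted p = 2.09e-10). The Huh7 call was lost without the Huh7 sertraline library or the Huh7 library given both drugs, with an adjusted p of up to 0.334. The difference between the lines was 1.82 ± 0.17 (adjusted p = 1.37e-06) and was called whichever library was left out. SGCE, its divergent neighbour, fell by 0.34 in Huh7 (SE 0.10, adjusted p = 0.0204), and had -0.12 ± 0.10 in Hep3B (adjusted p = 0.449).

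HMGA2 had 161 and 229 CPM in the Huh7 libraries given both drugs and XL413, against 333 and 455 CPM in those given sertraline and no drug, 2 ranges apart. The Hep3B libraries had 174 and 230 CPM with both drugs and XL413, against 148 and 254 CPM with sertraline and no drug, 2 ranges that overlapped. HMGA2 fell by 1.02 in Huh7 (SE 0.11, adjusted p = 1.14e-06), while its log2 change was 0.04 ± 0.10 in Hep3B (adjusted p = 0.84). The difference was -1.06 ± 0.15 (adjusted p = 0.000122), and it was -1.27 to -0.88 when 1 library was left out. HMGA1 fell in both lines, by 0.65 in Huh7 (SE 0.10, adjusted p = 0.000118) and by 0.45 in Hep3B (SE 0.10, adjusted p = 0.00368).

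LIN28B differed in sign between the lines after XL413. It had 377 and 498 CPM in Huh7 with both drugs and XL413, against 314 and 436 CPM with sertraline and no drug, a log2 change of 0.23 ± 0.11 (adjusted p = 0.16). In Hep3B LIN28B had 101 and 124 CPM with both drugs and XL413, against 109 and 187 CPM with sertraline and no drug, and fell by 0.35 (SE 0.11, adjusted p = 0.0374). The pairs overlapped in both lines, and the Hep3B call was lost without the Hep3B control or XL413 library (adjusted p of up to 0.802). The difference of 0.57 ± 0.16 (adjusted p = 0.025) was lost in 6 of the 8 fits that left out 1 library (any Huh7 library, the Hep3B control or the Hep3B XL413 library), with an adjusted p of up to 0.336.

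AFP had 15948 and 15591 CPM in Huh7 with both drugs and XL413, against 22801 and 20076 CPM with sertraline and no drug. Hep3B libraries had 720 and 1004 CPM with both drugs and XL413, against 1054 and 1256 CPM with sertraline and no drug. The libraries with XL413 were the lower ones in both lines. AFP fell by 0.44 in Huh7 (SE 0.15, adjusted p = 0.0376) and by 0.44 in Hep3B (SE 0.15, adjusted p = 0.046). The Huh7 call was lost without the Hep3B control library or any single Huh7 library, and the Hep3B call without any single Hep3B library. IGF2BP1 fell by 0.32 in Huh7 (SE 0.11, adjusted p = 0.0372), a call lost without any single Huh7 library, and had -0.16 ± 0.10 in Hep3B (adjusted p = 0.314).

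**Figure D4:**
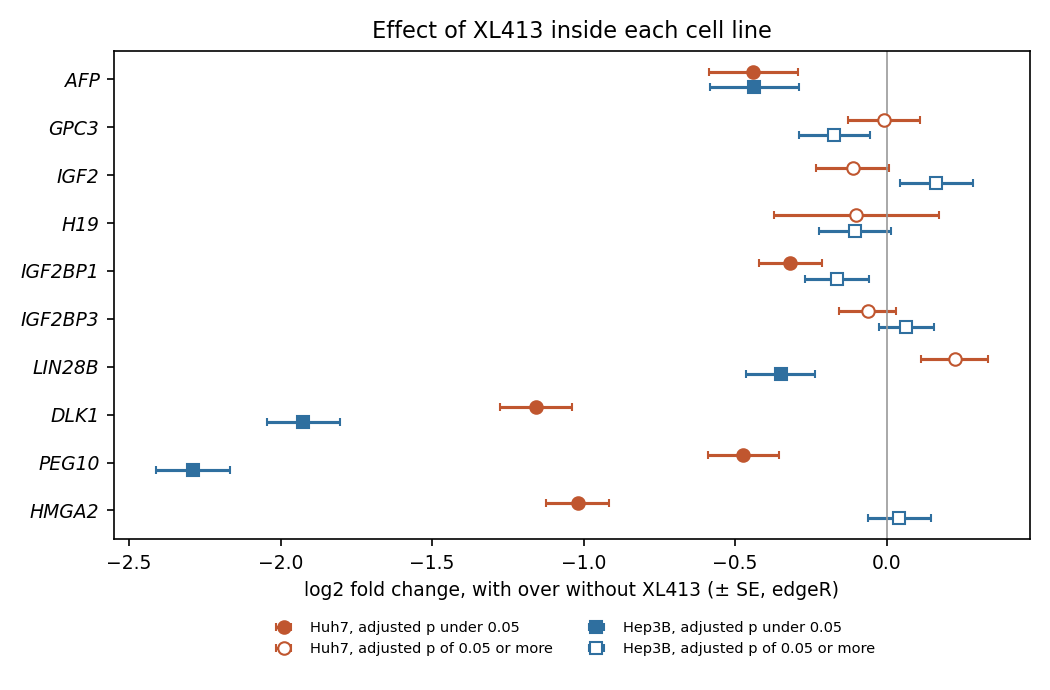
Log2 fold change with XL413 over without it inside Huh7 (circles) and Hep3B (squares), 2 libraries with and 2 without the drug in each line, with SE from edgeR; filled points passed an adjusted p of 0.05. DLK1 and PEG10 lay furthest below 0 in Hep3B, at -1.93 and -2.29, and HMGA2 lay at -1.02 in Huh7 and 0.04 in Hep3B.

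Genes around the members also changed with XL413, where 20.5% of all genes were called in Huh7 and 17.1% in Hep3B. In the AFP list, GC rose in both lines, by 1.35 ± 0.11 in Huh7 (adjusted p = 5.04e-08) and by 0.68 ± 0.10 in Hep3B (adjusted p = 9.47e-05). ZHX2 fell by 0.34 in Huh7 (SE 0.09, adjusted p = 0.0127) and rose by 0.41 ± 0.10 in Hep3B (adjusted p = 0.00583), a difference of -0.75 ± 0.13 (adjusted p = 0.00117). Among 18 genes of the IGF axis, 4 rose and 2 fell in Huh7, and 3 rose and 2 fell in Hep3B. IGFBP3 rose by 1.58 ± 0.15 in Huh7 (adjusted p = 4.38e-07), and IGFBP1 fell by 1.46 in Hep3B (SE 0.26, adjusted p = 0.000495). That IGFBP1 value averages over the libraries with and without sertraline, and most of the fall lay between those with it. Without sertraline, IGFBP1 in Hep3B had 6.74 CPM with XL413 and 7.62 CPM with no drug. With sertraline it had 30.02 CPM with both drugs and 135 CPM with sertraline alone. IGF2R and IGF1R were not called in either line.

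Of 19 genes of the LIN28 and let-7 axis, 2 rose and 4 fell with XL413 in each line. Over all genes 11.6% rose and 8.99% fell in Huh7, and 8.84% rose and 8.21% fell in Hep3B. MYCN fell by 1.51 in Huh7 (SE 0.14, adjusted p = 3.65e-07), and CCND1, cyclin D1, fell by 0.87 in Hep3B (SE 0.12, adjusted p = 4.88e-05). LIN28A had 11 and 16 reads in the Huh7 libraries given both drugs and XL413, against 0 and 1 in those given sertraline and no drug. In Hep3B it had 10 and 13 reads, against 5 and 27, and these pairs overlapped. Of 21 imprinted genes outside the members, 3 rose and 1 fell in Huh7, and 2 rose and 4 fell in Hep3B. PEG3 fell by 0.72 in Hep3B (SE 0.10, adjusted p = 7.64e-05), and CDKN1C rose by 1.48 ± 0.26 in Huh7 and by 0.80 ± 0.12 in Hep3B (adjusted p = 0.000396 and 0.000107). Adult hepatocyte markers mostly went down where they were called: 0 rose and 7 fell of 14 in Huh7, and 2 rose and 7 fell in Hep3B. CPS1, the first enzyme of the urea cycle, fell by 0.79 in Huh7 and fell by 2.64 in Hep3B (SE 0.13 and 0.14, adjusted p = 0.000169 and 1.80e-10). Of 15 markers of hepatoblasts and progenitors, 5 rose and 1 fell in Huh7, and 6 rose and 5 fell in Hep3B.

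After sertraline 3 of the 4 members of the let-7 circuit (IGF2BP1, LIN28B and HMGA2) fell in Huh7 and all 4 fell in Hep3B, while DLK1 rose in both lines. Inside Huh7 1 member rose and 4 fell, where 27.9% of all genes were called (14.3% higher, 13.6% lower). Inside Hep3B 1 member rose and 5 fell, where 24.1% of all genes were called (11.8% higher, 12.3% lower). PEG10, outside that circuit, fell in both. IGF2BP3 was called in Hep3B only, and the difference between lines was not called for it. For the line difference of the sertraline effect 0 members were called with edgeR (2 at an unadjusted p under 0.05, AFP and IGF2BP3), 1 with DESeq2 (AFP) and 0 with limma voom, where 4.34% of all genes were called with edgeR.

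LIN28B had 377 and 314 CPM in Huh7 with both drugs and sertraline, against 498 and 436 CPM with XL413 and no drug. In Hep3B it had 101 and 109 CPM with both drugs and sertraline, against 124 and 187 CPM with XL413 and no drug. Libraries with sertraline were below those without it in both lines. LIN28B fell by 0.44 in Huh7 (SE 0.11, adjusted p = 0.005) and by 0.54 in Hep3B (SE 0.11, adjusted p = 0.00141). IGF2BP1 had 326 and 442 CPM in Huh7 with both drugs and sertraline, against 469 and 537 CPM with XL413 and no drug, and fell by 0.40 (SE 0.11, adjusted p = 0.00661). In Hep3B IGF2BP1 had 393 and 420 CPM with both drugs and sertraline, against 481 and 564 CPM with XL413 and no drug, and fell by 0.36 (SE 0.11, adjusted p = 0.0162). IGF2BP3 fell in Hep3B by 0.42 (SE 0.09, adjusted p = 0.00219) and had -0.12 ± 0.09 in Huh7 (adjusted p = 0.366).

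HMGA2 had 161 and 333 CPM in Huh7 with both drugs and sertraline, against 229 and 455 CPM with XL413 and no drug, and these pairs overlapped. It fell by 0.48 (SE 0.10, adjusted p = 0.0016). In Hep3B it had 174 and 148 CPM with both drugs and sertraline, against 230 and 254 CPM with XL413 and no drug, and fell by 0.59 (SE 0.11, adjusted p = 0.000338). PEG10 fell by 0.49 in Huh7 (SE 0.12, adjusted p = 0.00291) and by 0.76 in Hep3B (SE 0.12, adjusted p = 8.10e-05). DLK1 rose by 0.42 ± 0.12 in Huh7 (adjusted p = 0.00994) and by 0.45 ± 0.12 in Hep3B (adjusted p = 0.00727). In Huh7 DLK1 had 107 and 270 CPM with both drugs and sertraline, against 90.8 and 178 CPM with XL413 and no drug, and in Hep3B 99.7 and 447 CPM, against 86.6 and 277 CPM. The sertraline libraries were the higher ones at each XL413 state, although the pairs overlapped in both lines.

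AFP did not pass in either line after sertraline, with 0.11 ± 0.15 in Huh7 (adjusted p = 0.634) and -0.37 ± 0.15 in Hep3B (adjusted p = 0.0767). H19 had -0.32 ± 0.12 in Hep3B (adjusted p = 0.0576). Both AFP and H19 were called lower there with DESeq2, limma voom, total count scaling and no filter. GPC3 and IGF2 were not called in either line. Most sertraline calls depended on single libraries. In Huh7 the 5 calls came down to 1 (DLK1) without the XL413 library or the library given both drugs, and to 3 (IGF2BP1, PEG10 and HMGA2) without the control or the sertraline library. In Hep3B the 6 calls came down to 1 (PEG10) without the control library, and to 3 (IGF2BP3, PEG10 and HMGA2) without the sertraline library.

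**Figure D5:**
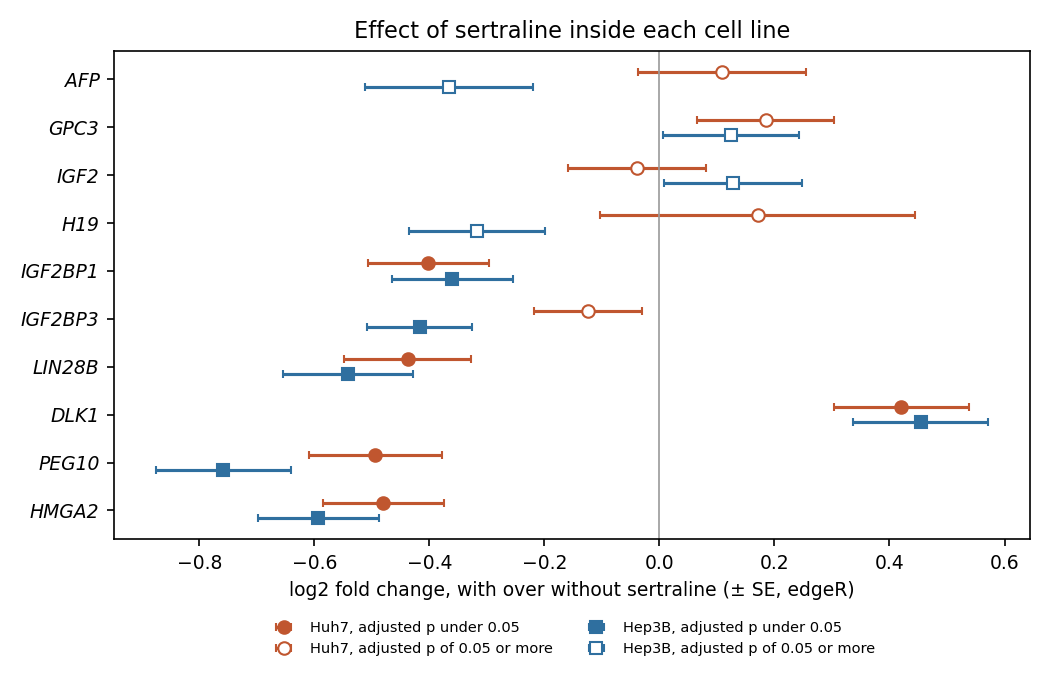
Log2 fold change with sertraline over without it inside Huh7 (circles) and Hep3B (squares), 2 libraries with and 2 without the drug in each line, with SE from edgeR; filled points passed an adjusted p of 0.05. DLK1 lay at 0.42 and 0.45, and IGF2BP1, LIN28B, PEG10 and HMGA2 lay below 0 in both lines.

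Around the members, 6 of 18 tested genes of the IGF axis rose after sertraline over both lines, 0 fell and 12 did not pass. Among all genes 2.96% were called higher, and the median log2 change was 0.54 in the list against 0.01 for all genes. The list was chosen with earlier results of these data known, so this contrast is a description and no test of the axis. Inside the lines the calls went both ways, with 7 higher and 2 lower in Huh7 and 7 higher and 3 lower in Hep3B. Over all genes 27.9% were called in Huh7 and 24.1% in Hep3B. STC2, a secreted inhibitor of the protease that frees IGF from its binding proteins, rose by 1.47 ± 0.20 (adjusted p = 0.00931). IRS2, an adaptor below the insulin and IGF receptors, rose by 1.14 ± 0.16 (adjusted p = 0.0107), and IGF2R by 0.63 ± 0.15 (adjusted p = 0.0496). IGFBP1 was also called higher. In Hep3B it had 30.02 and 135 CPM with both drugs and sertraline, against 6.74 and 7.62 CPM with XL413 and no drug. The Huh7 libraries in the same order had 2.05 and 1.10 CPM, against 0.421 and 0.0765 CPM. IGF2R, which also carries enzymes to lysosomes, had 690 and 711 CPM in Huh7 with both drugs and sertraline, against 398 and 403 CPM with XL413 and no drug. The Hep3B libraries had 866 and 961 CPM with both drugs and sertraline, against 652 and 700 CPM with XL413 and no drug. IGF2 itself had a log2 change of 0.09 ± 0.15 over both lines (adjusted p = 0.77).

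In the LIN28 and let-7 list 1 of 19 genes fell after sertraline over both lines and 0 rose, where 4.9% of all genes were called. That gene was CCND1, which fell by 1.25 (SE 0.27, adjusted p = 0.0389). Inside Huh7 2 genes of this list were higher and 5 lower, and inside Hep3B 1 was higher and 4 lower. Over all genes 27.9% and 24.1% were called there. MYCN fell inside each line, by 1.47 in Huh7, and fell by 1.87 in Hep3B (SE 0.14 and 0.20, adjusted p = 1.52e-07 and 8.10e-07). MYC went the other way in Huh7, with 211 and 223 CPM with both drugs and sertraline, against 111 and 111 CPM with XL413 and no drug. In Hep3B MYC had 193 and 236 CPM, against 153 and 221 CPM. In the AFP list CEBPB rose by 1.17 ± 0.17 and FOXA1 fell by 0.69 (SE 0.12, adjusted p = 0.0107 and 0.0199). PROM1, a surface marker of progenitors, was the 1 gene called over both lines of the 15 hepatoblast and progenitor markers and fell by 1.64 (SE 0.30, adjusted p = 0.024). Of these 15 markers, 4 were higher and 3 lower inside Huh7, and 1 was higher and 6 lower inside Hep3B. Of the adult hepatocyte markers 2 of 14 rose over both lines, ASS1 of the urea cycle by 1.69 ± 0.19 and TF, transferrin, by 0.75 ± 0.16 (adjusted p = 0.00681 and 0.0389). Inside the lines these 14 markers went both ways, with 2 higher and 3 lower in Huh7 and 3 higher and 2 lower in Hep3B. HPD was among the lower ones in both lines.

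Cells given both drugs had the lowest level of the 4 libraries of a line for several members. This held for IGF2BP1, PEG10, HMGA2, IGF2 and IGF2BP3 in Huh7, and for AFP, GPC3, H19, IGF2BP1, LIN28B and PEG10 in Hep3B. Among all genes tested the library given both drugs was the lowest for 26.6% in Huh7 and 21.9% in Hep3B. Some of these ranks lie within counting error: GPC3 in Hep3B was -0.016 on the log2 scale against XL413 alone (95% counting half-interval 0.022), and IGF2BP3 in Huh7 was -0.060 against sertraline alone (half-interval 0.098). For PEG10 the library given both drugs had 1286 CPM in Huh7, against 2514 CPM with no drug, and 109 CPM in Hep3B, against 906 CPM with no drug. A departure from the sum of the single-drug effects was not called for any member. The interaction of PEG10 was -0.10 ± 0.65 and that of HMGA2 0.14 ± 0.41, so the interval is wide for both.

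For each member the 2 genes with the most similar pattern over the 8 libraries were found among 11664 genes, by Pearson's r of log2 CPM after the mean of each line was removed. The points share the treatments and libraries, and r is a description of the best of many. DLK1 was most like KCTD3 (r = 0.997) and PLG, plasminogen of adult hepatocytes (r = 0.996). PEG10 was most like TRMT10A and RNF121 (r = 0.997 and 0.991), LIN28B like ADAM9 and AKIRIN1 (0.994 and 0.993), and IGF2BP1 like LPAR6 and SNRNP40 (0.995 and 0.995). HMGA2 was most like USP13 and PRDX3 (0.989 and 0.988), and IGF2BP3 like MOB1A and MED17 (0.982 and 0.981). AFP was most like XRN2 and ZBTB9 (0.980 and 0.978), GPC3 like CHRNB1 and SURF1 (0.973 and 0.971), H19 like NAF1 and PRUNE (0.969 and 0.964), and IGF2 like SGSM2 and FDXR (0.968 and 0.966). No member was among the 2 genes most like another member. With 2 genes kept of 11664 searched, this does not show whether the members vary together.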

How the data were processed

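The members and gene lists were chosen with earlier results of these data known. The authors deposited whole-number read counts per Ensembl gene, without normalization, made with HISAT2 and HTSeq on GRCh38 per the submitters' processing notes; libraries were stranded and poly(A)-selected per the labels' descriptions. Annotation release and strand setting of the counting are not stated, so overlapping genes may share reads.

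Counts were analysed in R 4.3.3 with edgeR 4.0.16 (filterByExpr on treatment groups, TMM, estimateDisp, glmQLFit, glmQLFTest) with terms for line and treatment and 3 residual degrees of freedom. A model of cell line by each drug, with 2 residual degrees of freedom, gave effects inside a line and their differences, which therefore have no check by repeated cultures. P-values were adjusted by Benjamini-Hochberg over 16972 genes and called under 0.05. Standard errors come from the fold change and F statistic. Named were all members, up to 3 called genes with the smallest p of each other list, 8 fixed relatives and the 2 most alike genes. Alternatives were DESeq2 1.42.0 (size factors and test), limma 3.58.1 voom, total count scaling, other filters, other models, other pseudocounts and leaving out each library. The procedure was tested for some of the comparisons on simulated counts whose spread was taken from these libraries. That test cannot stand in for repeated cultures. Figures were drawn with matplotlib 3.10.9. Promoter and microRNA sequences come from RefSeq.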

Additional observations from a re-analysis of the deposited data

Results flagged for a closer look

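The response to XL413 differed between the lines for 4 members, by the test of the difference itself (edgeR, adjusted over all genes tested, of which 8.9% were called; positive means a higher signed change in Huh7). For PEG10 the difference was 1.82, from a fall of 0.47 in Huh7 and a fall of 2.29 in Hep3B. For HMGA2 it was -1.06, with a log2 change of -1.02 in Huh7 and 0.04 in Hep3B. For DLK1 it was 0.77, with -1.16 in Huh7 and -1.93 in Hep3B; this call was lost in 2 of the 8 fits that left out 1 library (adjusted p of up to 0.107). For LIN28B it was 0.57, with 0.23 in Huh7 and -0.35 in Hep3B; this call was lost in 6 of the 8 fits (adjusted p of up to 0.336). The PEG10 and HMGA2 calls were kept in all 8. With 1 library per line and treatment, a response that belongs to the line and one that belongs to a single culture cannot be told apart.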

How the results depend on the processing

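The count of members called was recomputed under each alternative. Between the lines it was 5 and stayed between 5 and 6 when 1 library was left out. For XL413 against control (0 called) it was 2 without a filter, 1 with DESeq2 and 2 with the additive model. For both drugs against sertraline alone (0) it was 1 with total count scaling, 3 without a filter, 1 with DESeq2 and 2 with the additive model. For sertraline against control (0) it was 2 without a filter, 1 with DESeq2 and 3 with the additive model, and for both drugs against XL413 alone (0) it was 1 with DESeq2 and 3 with the additive model. The additive model holds 1 effect for each drug, averaged over libraries with and without the other drug. Its count is therefore the same test for both XL413 comparisons, and likewise for both sertraline comparisons. For the line difference of the sertraline effect (0) it was 1 without a filter and 1 with DESeq2. For XL413 inside Hep3B (4) it was 2 with total count scaling, and inside Huh7 (5) it was 3 with at least 10 reads in every library. Leaving out 1 library gave 2 to 5 for XL413 inside Huh7, 2 to 4 inside Hep3B, 2 to 4 for the difference between lines after XL413, 1 to 5 for sertraline inside Huh7 and 1 to 6 inside Hep3B; a fit with 1 library less has fewer residual degrees of freedom, and the cause of other changes was not tested. Total count scaling moved the median log2 change of all genes after XL413 by 0.10 in Huh7 and 0.11 in Hep3B, and the calls lost under it were AFP and LIN28B in Hep3B and IGF2BP1 in Huh7. No called member changed sign under any alternative run; 101 sign changes occurred among values that were not called. No paired analysis was possible because every replicate number is 1, so the numbers join no libraries; the cell line, a term of the model, is the only pairing, and without it 0 members were called in each of the 5 drug comparisons over both lines. Depth limits H19 in Huh7, with 35 to 46 reads per library.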
